A study of Mus musculus with 12 samples.

Results

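The genes described here are 45 ribosome biogenesis factors, nucleolar and pre-ribosomal proteins taken from a list of names. The list uses no measured value in its rule, but it was drawn up with earlier results of these data known. Their levels were read in the small intestine of mice on either of 2 diets. Of the 45 symbols, 43 were matched to a probe set that carries a single gene symbol, and all 43 passed the filter on dim genes; Npm3 and Noc2l were not analysed here. They stand among 19937 genes with such a probe set, of which 11962 were tested. The series measured total RNA from 12 male wild-type FVB mice on 12 Affymetrix whole-transcript arrays, 1 array a mouse. The control group was 6 mice on a diet labelled control HF, and the low P/S group was 6 mice on a diet labelled low in P/S, the ratio of polyunsaturated over saturated fatty acids. Both groups were fed for 8 weeks and both are labelled with an age of 8 weeks, and the labels do not say when that age was taken. The series title names transintestinal cholesterol excretion under a saturated fat diet as its subject.

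Ribosomes are built in the nucleolus. RNA polymerase I transcribes a long precursor, small nucleolar ribonucleoproteins (snoRNPs) guide chemical modification of that precursor, and a series of assembly factors fold it, cut it and load it with ribosomal proteins to give the small and the large subunit. These factors are abundant in growing and dividing cells. In the intestine such cells lie in the crypts, whereas the villi are covered by non-dividing enterocytes.

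The values are the intensities deposited for each probe set, on a linear scale, and a difference is the mean log2 intensity of the low P/S arrays minus that of the control arrays, with its standard error (SE), n = 6 against 6. A gene was called where the limma test (two-sided) gave a Benjamini-Hochberg adjusted p under 0.05 over the 11962 genes, and groups are said not to overlap where every array of one lay above every array of the other. The median intensity of an array lay between 91.9 and 99.5. Enterocyte markers were bright, with summed levels of 87761 to 116210 in the control arrays and 82516 to 95591 in the low P/S arrays. Of 7 matched exocrine pancreas markers 4 were too dim to test, as were 3 of 5 matched liver markers. The liver marker Alb was tested and varied widely between arrays, with mean levels of 217 in controls and 219 on low P/S. Its difference of 0.01 ± 0.42 was not called (limma adjusted p = 0.991). The summed level of the liver list ran from 371 to 708 in controls and from 340 to 901 on low P/S. Control array 6 and low P/S array 4 stood apart in the genes described here. Control array 6 was the lowest control for 31 of the 43 genes, and low P/S array 4 was the highest low P/S array for 35. For that reason the count of each role and list is also given without these arrays. The arrays were picked for their extremes in these very genes, so that differences shrink without them by construction. Over all genes tested, limma array weights were also lowest for these arrays, 0.57 for control array 6 and 0.70 for low P/S array 4. Those of the other arrays ran from 0.71 to 1.54. On the sides where the diets meet, control array 2 was the highest control for 25 of the 43 genes. Low P/S array 2 was the lowest low P/S array for 24. Leaving out either of them alone gave 32 of the 43 called higher.

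Transcripts of ribosome biogenesis factors were higher on the low P/S diet as a group. Of the 43 genes 32 were called higher (74.4%) and 0 lower, by limma with Benjamini-Hochberg adjustment, where 17.8% of all genes tested were called higher and 7.87% lower (2132 and 942 genes, or 1773 and 1543 under quantile normalization). At an unadjusted p under 0.05, 35 were higher and 0 lower. All 43 differences were above 0, from 0.07 to 0.50 with a median of 0.26, beside a median of 0.02 over all genes tested. The largest fold was 1.42, for Nop58. For 13 genes (30.2%) every low P/S array lay above every control array, which held for 6.86% of all genes tested; every low P/S array lay below every control array for 0 of the 43 and for 3.9% of all genes. Without control array 6 and low P/S array 4, 22 of the 43 were called higher and 0 lower, with a median of 0.18, beside 10.2% of all genes tested called higher. Under quantile normalization 27 were called higher, beside 14.8% of all genes, and with the ordinary variance of each gene 22, beside 13.4%. In whole tissue, more cells that hold a transcript and more of it per cell cannot be told apart.

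**Figure D1:**
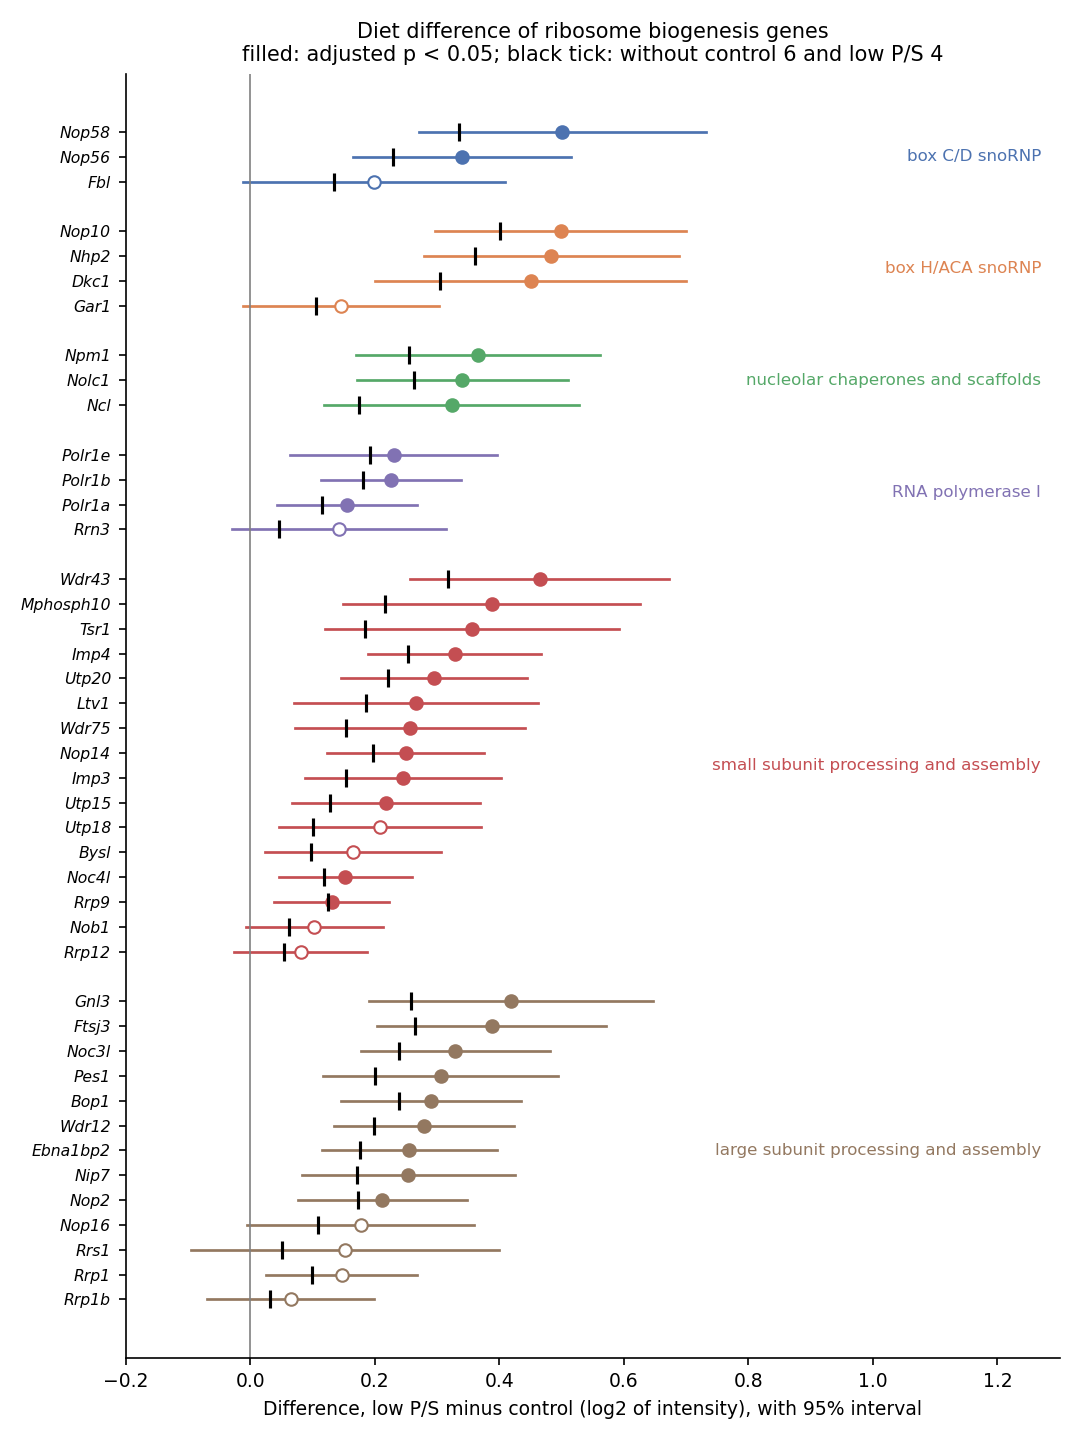
Difference between diets (log2, low P/S minus control) for each of the 43 genes, grouped by role, with 95% confidence intervals from limma over 6 arrays a group. Filled points are the 32 genes called higher, open points the 11 not called, and black ticks the difference without control array 6 and low P/S array 4. Every point lies to the right of 0.

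The box C/D snoRNP proteins bind guide RNAs that direct methylation of the ribosomal RNA precursor. Nop58, a core scaffold protein of these particles (probe set 10346634), read 282, 408 and 415 (lowest, median and highest of 6) in the control arrays and 451, 516 and 709 in the low P/S arrays. All 6 low P/S arrays lay above all controls. The level was 1.42-fold higher, a difference of 0.50 ± 0.11 (SE, n = 6 against 6; limma adjusted p = 0.00355). Nop56, its partner and paralogue (10476093), read 329, 377 and 432 in controls and 420, 472 and 609 on low P/S, where 5 of 6 arrays lay above all controls. Its difference was 0.34 ± 0.08 (limma adjusted p = 0.00713). Fbl, fibrillarin, the methyltransferase of the particle (10447589), read 169, 193 and 236 in controls and 173, 233 and 260 on low P/S. The groups overlapped, and its difference of 0.20 ± 0.10 was not called (limma adjusted p = 0.152), though it was without low P/S array 2 (adjusted p = 0.0346) and with the mean of both its probe sets (adjusted p = 0.0429). A dimmer probe set for Fbl (10551464) read 124, 130 and 140 in controls and 138, 152 and 168 on low P/S, a difference of 0.24 (exact permutation p = 0.00433, two-sided, n = 6 against 6). The brighter one gave an exact permutation p of 0.121 by the same test, so the probe sets for Fbl had like differences and fell on different sides of 0.05. The log2 ratio of Nop58 to Nop56 within an array was 0.16 higher on low P/S (exact permutation p = 0.0368, n = 6 against 6; 0.0736 after Benjamini-Hochberg adjustment over the 2 paralogue pairs compared), which did not pass.

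Nop58 had the largest difference of the 43 genes and is among the 6 of lowest adjusted p with a RefSeq promoter, and the 250 bases before its annotated start are printed for that reason (RefSeq, build GRCm38.p6; 5′ to 3′ on the strand of the gene, with capitals for any of the motifs described further on, none of which lies here).
Nop58, chr1:59684756-59685005, plus strand: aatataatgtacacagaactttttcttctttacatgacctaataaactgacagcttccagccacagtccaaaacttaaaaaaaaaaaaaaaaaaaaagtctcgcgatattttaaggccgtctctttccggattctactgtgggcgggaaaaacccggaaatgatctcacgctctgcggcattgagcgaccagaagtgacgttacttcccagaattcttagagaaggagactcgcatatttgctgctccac

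The box H/ACA proteins form the particles that convert uridine to pseudouridine, and they also bind telomerase RNA. Nop10, the smallest of the core proteins (10474541), read 388, 430 and 505 in controls and 523, 611 and 796 on low P/S, without overlap. It was 1.41-fold higher, a difference of 0.50 ± 0.09 (limma adjusted p = 0.00148), the lowest adjusted p of the 43 genes. Nhp2, the RNA-binding core protein (10375880), read 211, 274 and 322 in controls and 335, 361 and 449 on low P/S, again without overlap, and was 1.40-fold higher with a difference of 0.48 ± 0.10 (limma adjusted p = 0.0021). Dkc1, dyskerin, the pseudouridine synthase itself (10600485), read 226, 306 and 363 in controls and 324, 400 and 510 on low P/S, where 5 of 6 arrays lay above all controls. Its difference was 0.45 ± 0.12 (limma adjusted p = 0.0109). Gar1, the remaining core protein (10502146), read 199, 207 and 244 in controls and 200, 244 and 263 on low P/S, so that the groups overlapped widely. Its difference of 0.15 ± 0.07 was not called (limma adjusted p = 0.159). The count without control array 6 and low P/S array 4 was 2 of 3 for the box C/D and 3 of 4 for the box H/ACA proteins. Dkc1, Nhp2 and Nop10 were the latter, at differences of 0.30, 0.36 and 0.40.

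The promoters of Nop10 and Nhp2, proteins of the same particle, are printed since both genes are among the 6 of lowest adjusted p (RefSeq, GRCm38.p6, 250 bases before the start). The capitals in Nhp2 mark an ETS-type motif, and Nop10 holds none of the motifs searched.
Nop10, chr2:112261676-112261925, plus strand: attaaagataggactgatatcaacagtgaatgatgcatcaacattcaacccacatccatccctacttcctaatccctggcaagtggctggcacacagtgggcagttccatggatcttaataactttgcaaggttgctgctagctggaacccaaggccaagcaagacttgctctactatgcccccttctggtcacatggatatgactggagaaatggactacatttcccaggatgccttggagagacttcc
Nhp2, chr11:51619523-51619772, plus strand: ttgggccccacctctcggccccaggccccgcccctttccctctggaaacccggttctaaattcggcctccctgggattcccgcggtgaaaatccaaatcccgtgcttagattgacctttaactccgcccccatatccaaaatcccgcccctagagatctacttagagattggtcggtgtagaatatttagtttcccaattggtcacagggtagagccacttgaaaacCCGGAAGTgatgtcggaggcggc

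All 3 nucleolar chaperones that were measured were called higher, with and without control array 6 and low P/S array 4. Npm1, nucleophosmin, an abundant histone and ribosome chaperone (10385043), read 647, 853 and 973 in controls and 917, 1043 and 1256 on low P/S. It was 1.29-fold higher, a difference of 0.37 ± 0.09 (limma adjusted p = 0.00876). Nolc1, which carries snoRNPs between Cajal bodies and the nucleolus (10463535), read 181, 206 and 236 in controls and 232, 255 and 312 on low P/S, a difference of 0.34 ± 0.08 (limma adjusted p = 0.00582). Ncl, nucleolin, which binds the nascent precursor (10356312), read 518, 711 and 793 in controls and 754, 848 and 1085 on low P/S, where 5 of 6 arrays lay above all controls. Its difference was 0.32 ± 0.10 (limma adjusted p = 0.0219). In each of the 3 genes the groups overlapped, and Ncl was not called under quantile normalization (adjusted p = 0.0595) or with the ordinary variance (0.0686).

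RNA polymerase I makes the ribosomal RNA precursor, and 3 of its 4 genes here were called, with the lowest median difference of any role, 0.19. Polr1b, the second-largest subunit (10475965), read 171, 187 and 192 in controls and 197, 213 and 234 on low P/S, without overlap. It was 1.17-fold higher, a difference of 0.23 ± 0.05 (limma adjusted p = 0.00564). Polr1a, the catalytic largest subunit, read 130, 145 and 150 in controls and 145, 158 and 167 on low P/S, a difference of 0.16 ± 0.05 (limma adjusted p = 0.0400). Polr1e, a subunit that helps the enzyme engage the promoter, read 90.7, 101 and 106 in controls and 96.7, 115 and 135 on low P/S, a difference of 0.23 ± 0.08 (limma adjusted p = 0.0403). Both calls sat near the threshold, and both were lost without control arrays 1 and 2. The call of Polr1a was lost under quantile normalization and with array weights. The call of Polr1e was lost with no filter, with the ordinary variance and with the replicate block. Single arrays mattered as well. That of Polr1a was lost without any one of control arrays 1, 5 and 6 or low P/S arrays 2, 3, 4 and 6 (highest adjusted p = 0.0916), and that of Polr1e without any one of control arrays 1, 3, 4 and 6 or low P/S arrays 1, 3 and 4 (highest adjusted p = 0.0951). Rrn3, the initiation factor that links growth signals to the polymerase, read 271, 350 and 384 in controls and 337, 383 and 419 on low P/S. Its difference of 0.14 ± 0.08 was not called (limma adjusted p = 0.206). Of the 4 genes 1 was called, Polr1b, when control array 6 and low P/S array 4 were left out.

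**Figure D2:**
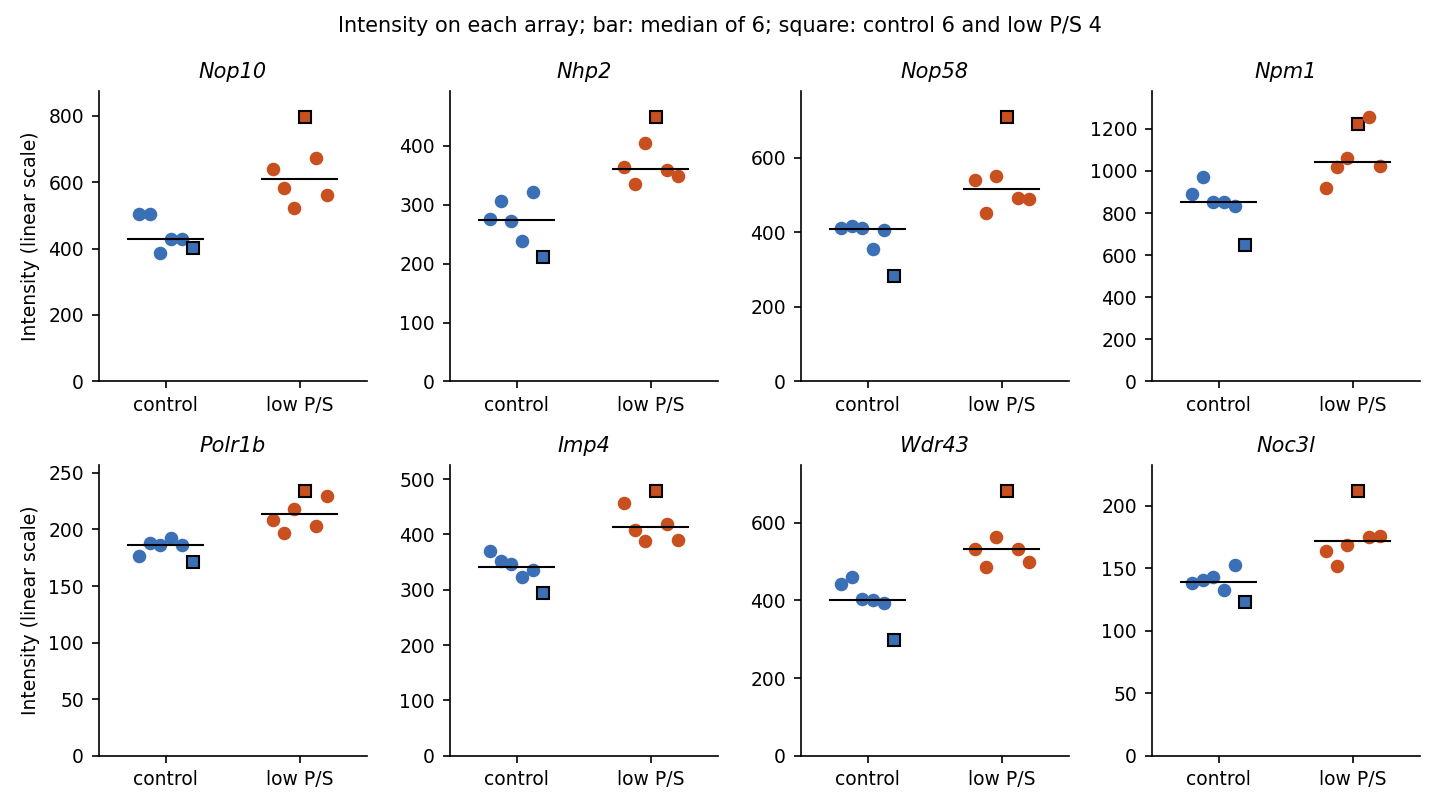
Intensity on each array (linear axis from 0) for 8 genes of small p from the different roles, control arrays beside low P/S arrays, with a bar at the median of 6 and squares for control array 6 and low P/S array 4. The low P/S points of Nop10, Nhp2, Nop58, Polr1b, Imp4 and Wdr43 all lie above their control points, and low P/S array 4 is the top point in each panel but that of Npm1.

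Factors of the small subunit act in the processome, the large particle that forms on the precursor around the U3 snoRNP, and in the later maturation of the small subunit. Of the 16 genes 12 were called higher and 0 lower, with a median difference of 0.25. Imp4, a U3 snoRNP protein (10345357), read 294, 342 and 370 in controls and 388, 413 and 478 on low P/S, without overlap. It was 1.26-fold higher, a difference of 0.33 ± 0.07 (limma adjusted p = 0.00209). Wdr43, a processome protein of the subcomplex that joins first (10446693), read 297, 402 and 461 in controls and 487, 532 and 682 on low P/S, also without overlap. It was 1.38-fold higher, a difference of 0.46 ± 0.10 (limma adjusted p = 0.00296), the largest among the small subunit factors. Nop14, needed for early cuts of the precursor (10529425), read 154, 165 and 188 in controls and 179, 199 and 220 on low P/S, a difference of 0.25 ± 0.06 (limma adjusted p = 0.00627). Utp20, a very large processome scaffold (10371676), read 121, 136 and 156 in controls and 156, 165 and 192 on low P/S. These groups did not overlap but touched, at 155.8 and 156.0, and the difference was 0.30 ± 0.07 (limma adjusted p = 0.00654). Mphosph10, which holds Imp3 and Imp4 in the U3 particle (10564313), read 127, 170 and 190 in controls and 185, 200.5 and 301 on low P/S, a difference of 0.39 ± 0.11 (limma adjusted p = 0.0188). Its highest value, in low P/S array 4, stood well above the next, 216.

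The other small subunit factors gave smaller or less certain differences. Tsr1 (0.36), Ltv1 (0.27), Wdr75 (0.26), Imp3 (0.25), Utp15 (0.22), Noc4l (0.15) and Rrp9 (0.13) were called, with limma adjusted p between 0.0233 and 0.0444. Tsr1 and Ltv1 act on late small subunit precursors, Wdr75 and Utp15 belong to the subcomplex of Wdr43, which also serves transcription by RNA polymerase I, and Rrp9 is a specific component of the U3 snoRNP. The calls of all 7 were lost when some single arrays were left out. Imp3 lost its call without low P/S array 4 (adjusted p = 0.0563), Tsr1 without any one of control arrays 4 and 6 or low P/S array 4 (highest 0.0591), and Utp15 without any one of control arrays 3, 4 and 6 or low P/S arrays 4 and 5 (highest 0.0789). Wdr75 lost it without any one of control arrays 3, 4 and 6 or low P/S arrays 1, 3 and 4 (highest 0.0925). Noc4l lost it without any one of control arrays 3 to 6 or low P/S arrays 1, 4 and 5 (highest 0.0816). Rrp9 lost it without any one of control arrays 3 to 6 or low P/S arrays 3 to 6 (highest 0.0746), although its groups, at 121 to 126 in controls and 128 to 142 on low P/S, did not overlap. Ltv1 lost it without any one of control arrays 3 to 6 or low P/S arrays 1 to 5 (highest 0.104). Not called were Utp18 (0.21, limma adjusted p = 0.0559), Bysl (0.17, 0.0789), Nob1, the endonuclease that makes the last cut of the small subunit RNA (0.10, 0.157), and Rrp12, an export factor (0.08, 0.249). Utp18 was called without low P/S array 2 (adjusted p = 0.0262), under quantile normalization (0.0389), under median centring (0.0378) and with the replicate block (0.0482), and Mphosph10 was not called with the ordinary variance. The count of 12 fell to 5 without low P/S array 4, to 6 without control array 4 or 6, to 7 without control array 3 and to 8 without low P/S array 5. It also fell to 6 with the ordinary variance of each gene, where Imp3, Tsr1, Utp15, Wdr75 and Ltv1 lost the call too. Under quantile normalization it was 10, and Imp3, Noc4l and Ltv1 lost the call. With both control array 6 and low P/S array 4 left out, 5 of the 16 were called: Imp4, Wdr43, Nop14, Utp20 and Mphosph10.

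The promoters of Imp4 and Wdr43, the small subunit genes with the lowest adjusted p, are printed for that reason, and E-box letters lie in or next to both (RefSeq, GRCm38.p6, 250 bases before the start). The capitals in Imp4 are the E-box, and that of Wdr43 lies 18 bases after the start, outside the stretch shown.
Imp4, chr1:34439579-34439828, plus strand: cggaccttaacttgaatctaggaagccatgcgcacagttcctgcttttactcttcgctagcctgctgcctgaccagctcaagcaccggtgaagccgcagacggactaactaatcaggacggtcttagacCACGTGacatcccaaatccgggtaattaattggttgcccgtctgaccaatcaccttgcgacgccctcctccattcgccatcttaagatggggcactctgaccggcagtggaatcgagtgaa
Wdr43, chr17:71615965-71616214, plus strand: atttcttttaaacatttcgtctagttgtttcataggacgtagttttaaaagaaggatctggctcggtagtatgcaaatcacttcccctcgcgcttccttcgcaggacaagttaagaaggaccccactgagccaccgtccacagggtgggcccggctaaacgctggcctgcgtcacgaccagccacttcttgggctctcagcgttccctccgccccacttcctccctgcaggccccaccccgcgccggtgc

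Factors of the large subunit process and fold the large subunit RNAs and prepare the particle for export. Of the 13 genes tested 9 were called higher and 0 lower, with a median difference of 0.26. Noc3l, which moves large subunit precursors through the nucleus (10467344), read 123, 139 and 152 in controls and 152, 172 and 212 on low P/S, where 5 of 6 arrays lay above all controls. It was 1.26-fold higher, a difference of 0.33 ± 0.07 (limma adjusted p = 0.00364). Ftsj3, an RNA methyltransferase (10392098), read 175, 222 and 244 in controls and 253, 277 and 351 on low P/S, without overlap, a difference of 0.39 ± 0.09 (limma adjusted p = 0.00432). Gnl3, nucleostemin, a GTP-binding nucleolar protein of stem and cancer cells (10418480), read 168, 211 and 242 in controls and 242, 267 and 392 on low P/S, a difference of 0.42 ± 0.11 (limma adjusted p = 0.00994). The lowest low P/S value of Gnl3, 241.8, only just passed its highest control value, 241.6, and its highest, in low P/S array 4, lay far above the next, 271.

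Bop1, Pes1 and Wdr12 encode the PeBoW complex, which is needed to separate the large subunit RNAs from the precursor, and all 3 were called higher. Bop1 (10429908) read 212, 226 and 261 in controls and 248, 283 and 315 on low P/S, a difference of 0.29 ± 0.07 (limma adjusted p = 0.00574). Wdr12 (10550098) read 146, 160 and 172 in controls and 166, 192 and 234 on low P/S, a difference of 0.28 ± 0.07 (limma adjusted p = 0.00734). A dimmer probe set for Wdr12 (10355037) read 84.1, 104 and 107 in controls and 113, 118 and 142 on low P/S, without overlap. Its difference was 0.26 (exact permutation p = 0.00216, n = 6 against 6, the smallest that 6 against 6 can give). Pes1 differed by 0.31 (limma adjusted p = 0.0194). The 3 subunits of the complex thus had differences between 0.28 and 0.31, each called also without control array 6 and low P/S array 4 (0.24 for Bop1, 0.20 for Pes1 and 0.20 for Wdr12), and Pes1 was not called with the ordinary variance (adjusted p = 0.0607).

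Among the remaining large subunit factors, Ebna1bp2 (0.26, limma adjusted p = 0.0105), Nop2, an RNA methyltransferase (0.21, 0.0233), and Nip7 (0.25, 0.0295) were called, and in all 3 the groups did not overlap. The highest control and lowest low P/S values nearly touched for Ebna1bp2, at 327.675 and 327.689, and for Nop2, at 215.06 and 215.75. The call of Nop2 was lost without either of control arrays 3 and 4 (highest limma adjusted p = 0.0539) and under quantile normalization (0.0556). That of Nip7 was lost without any one of control arrays 4, 5 and 6 or low P/S arrays 3 and 5 (highest 0.0580). It was also lost with the ordinary variance. Rrp1 (0.15, limma adjusted p = 0.0689), Nop16 (0.18, 0.141), Rrs1, which helps install the smallest ribosomal RNA (0.15, 0.357), and Rrp1b (0.07, 0.474) were not called, and Rrp1 was called without low P/S array 3 (adjusted p = 0.0412), without control arrays 1 and 2 (0.0370) and with the replicate block (0.0403). The log2 ratio of Rrp1b to its paralogue Rrp1 differed by -0.08 between the diets (exact permutation p = 0.394, n = 6 against 6; 0.394 after adjustment over the 2 pairs), which did not pass. When control array 6 and low P/S array 4 were both left out, 8 of the 13 were called, Nip7 being the gene lost.

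The promoter of Noc3l, the large subunit gene with the lowest adjusted p, is printed for that reason (RefSeq, GRCm38.p6, 250 bases before the start, minus-strand gene). None of the motifs searched lies in it.
Noc3l, chr19:38819238-38819487, minus strand: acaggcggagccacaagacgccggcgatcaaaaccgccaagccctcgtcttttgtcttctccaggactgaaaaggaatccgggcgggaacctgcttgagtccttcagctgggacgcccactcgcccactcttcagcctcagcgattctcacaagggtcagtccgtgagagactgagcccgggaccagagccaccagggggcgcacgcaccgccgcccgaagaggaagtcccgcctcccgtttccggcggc

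The levels of these genes moved together between mice on the same diet. After each diet's mean was taken off, the median correlation over the 903 pairs of the 43 genes was 0.57 across 12 arrays, and 96.1% of the pairs were positive. The median over all pairs of the 11962 genes tested was 0.036. Without control array 6 and low P/S array 4 the median of the 903 pairs was 0.29 and 72.5% were positive, beside 0.031 over all genes. Tsr1 had the highest median correlation with the others, 0.74, and Bop1 the lowest, 0.20. All pairs share the same RNA samples and arrays, so these correlations are a description and not a test.

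**Figure D3:**
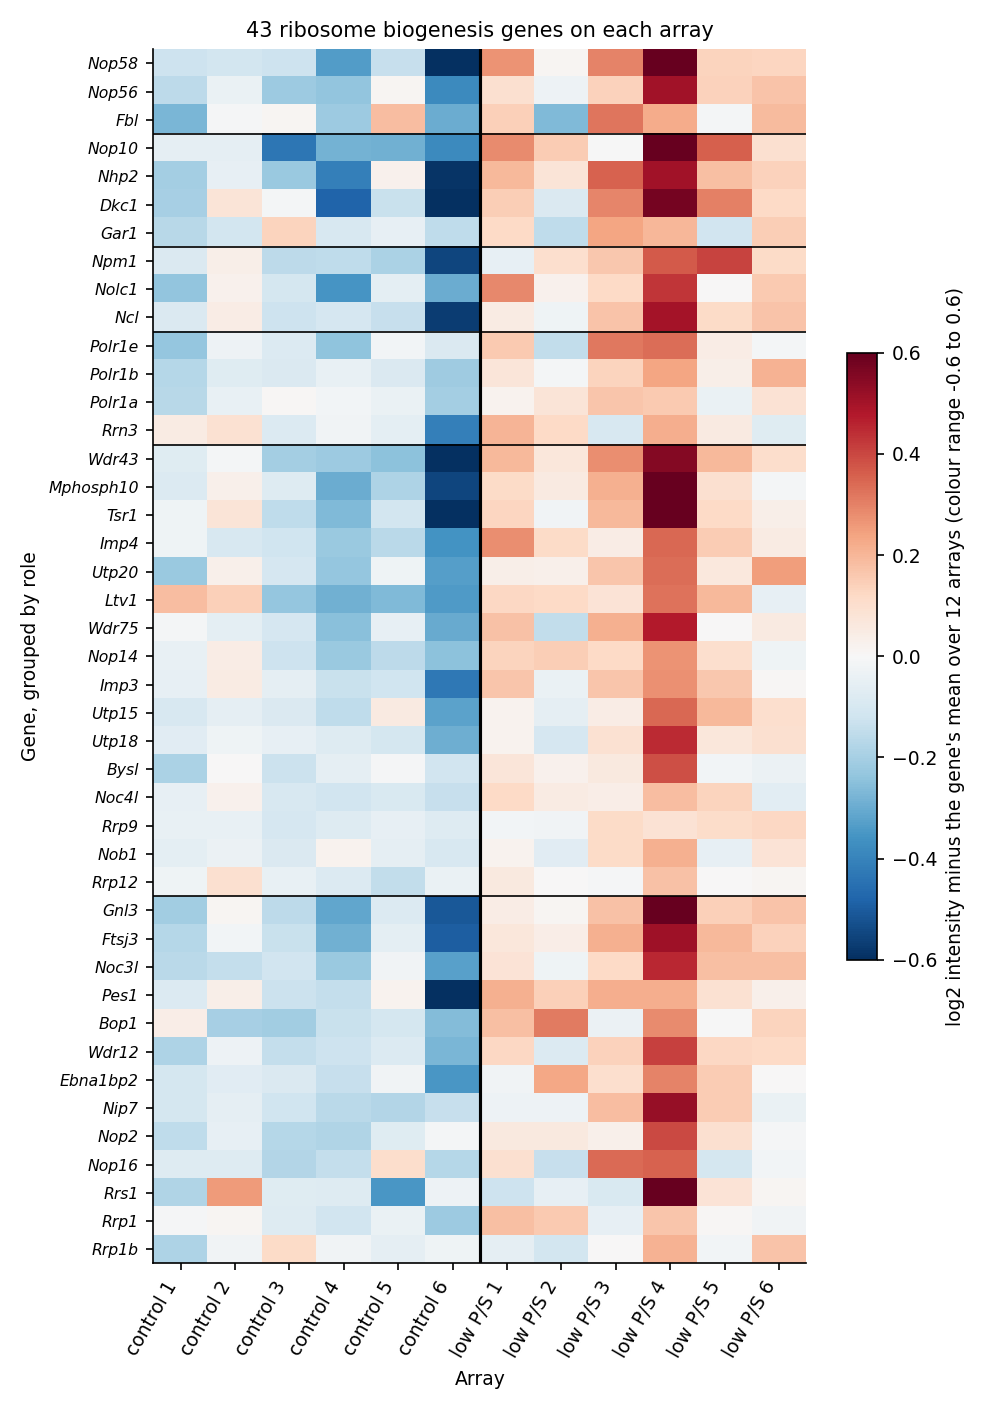
Log2 intensity of the 43 genes (rows, grouped by role) in the 12 arrays (columns, by diet), each gene centred on its mean over all arrays. Control array 6 is the column with most of the lowest values and low P/S array 4 the one with most of the highest.

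The mean centred log2 level of the 43 genes showed the same spread by array. It was -0.11, -0.01, -0.11, -0.18, -0.08 and -0.32 in control arrays 1 to 6, and 0.10, 0.01, 0.14, 0.38, 0.10 and 0.08 in low P/S arrays 1 to 6. The groups did not overlap in this mean, but control array 2 (-0.01) and low P/S array 2 (0.01) were nearly level.

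Other ribosome biogenesis factors, 105 genes outside the 45, were examined in the same fit. Of the 103 tested, 56 were called higher (54.4%) and 0 lower, with a median difference of 0.20; at an unadjusted p under 0.05, 72 were higher and 2 lower. Among other small subunit factors 29 of 41 were called higher, led by Ddx49, a nucleolar helicase (1.35-fold, 0.43 ± 0.07, limma adjusted p = 0.00053), Heatr1, a processome scaffold (1.35-fold, 0.44 ± 0.08, 0.00162), and Tsr3, which modifies the small subunit RNA (1.16-fold, 0.21 ± 0.04, 0.00292). Among other large subunit factors 25 of 50 were called higher, led by the helicase Ddx56 (1.36-fold, 0.44 ± 0.07, 0.00034), Nifk (1.46-fold, 0.54 ± 0.10, 0.0009) and the helicase Ddx21 (1.41-fold, 0.49 ± 0.09, 0.00121). In other RNA polymerase I factors the count was 2 of 12 (16.7%), near the 17.8% of all genes, with a median of 0.08. Those called were the subunits Polr1d (1.20-fold, 0.27 ± 0.04, limma adjusted p = 0.00047) and Twistnb (1.15-fold, 0.20 ± 0.06, 0.0196), and Ubtf, the factor that opens ribosomal RNA genes, was not (1.08-fold, 0.12 ± 0.04, 0.0639). The groups of Ubtf did not overlap, and it was called with the ordinary variance of each gene (adjusted p = 0.0260). Of the 103, 29 were called higher and 0 lower without control array 6 and low P/S array 4 (12 of 41 small subunit, 16 of 50 large subunit and 1 of 12 polymerase factors), and Twistnb was not among them (adjusted p = 0.0615).

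Cytosolic ribosomal proteins, the load that these factors assemble, were higher as well. Of 79 genes listed 55 had a probe set with a single symbol, and 36 of those (65.5%) were called higher and 0 lower, with a median difference of 0.20 and all 55 above 0. Rpl13 was 1.25-fold higher (0.32 ± 0.05, limma adjusted p = 0.00038), Rps10 1.18-fold (0.24 ± 0.04, 0.00084) and Rpl38 1.26-fold (0.33 ± 0.06, 0.00088). These genes have many processed pseudogenes of near-identical sequence, and signal from such copies could not be separated from that of the genes. Leaving out control array 6 and low P/S array 4, 24 of the 55 were called higher. The count was 26 under quantile normalization, with a median difference of 0.15, 28 with the ordinary variance of each gene and 29 with array weights. It was 37 under median centring and 41 with the replicate block.

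**Figure D4:**
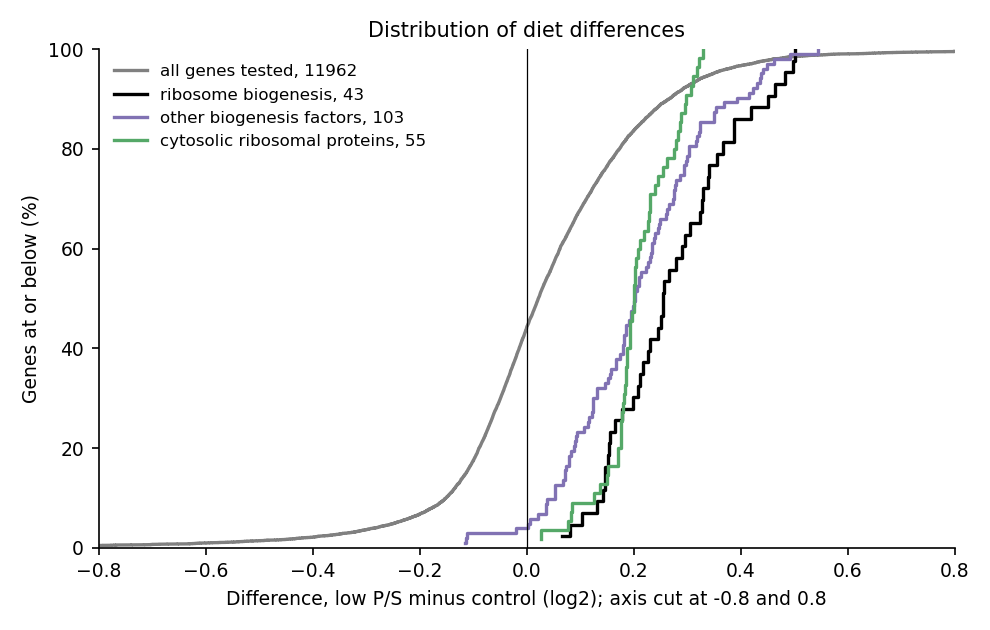
Cumulative share of genes (%) against the difference between diets (log2, low P/S minus control; axis from -0.8 to 0.8) for all 11962 genes tested, the 43 genes, the other biogenesis factors and the cytosolic ribosomal proteins. Over most of their range the curves of the last 3 lie to the right of that of all genes, which they cross near the top, with medians of 0.26, 0.20 and 0.20 beside 0.02.

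The Myc-Max network was examined because Myc is a known activator of ribosome biogenesis genes through the E-box, while proteins of the Mxd family pair with Max and repress from the same letters. Of 10 genes tested 0 were called higher and 2 lower. Mxd1 had a mean level of 1517 in controls and 897 on low P/S, 1.69-fold lower (difference -0.76 ± 0.05, limma adjusted p = 2.5e-07), without overlap. Max had mean levels of 1334 and 1012, 1.32-fold lower (-0.40 ± 0.06, adjusted p = 0.00022), also without overlap. Myc itself had mean levels of 150 and 162, a difference of 0.11 ± 0.09 that was not called (limma adjusted p = 0.387). The others were Mycl (0.04), Mxd3 (-0.12), Mxd4 (-0.10), Mxi1 (0.03), Mnt (-0.05), Mlx (0.06) and Mga (0.14). They were not called, with limma adjusted p from 0.181 to 0.703. Mlx (-0.026) and Mxi1 (-0.035) had the other sign under quantile normalization. Mxd3 was called lower without control arrays 1 and 2 (limma adjusted p = 0.0153), where the count of genes called lower was 3. Mycn was too dim to test, at 79.7 in controls and 75.3 on low P/S. Without control array 6 and low P/S array 4 the count was again 0 higher and 2 lower. The part of Mxd1, Max or Myc in the result for ribosome biogenesis factors was not tested.

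The E-box letters CACGTG were found in the promoters of 9 of the 38 genes with a RefSeq promoter (300 bases, from 250 before to 50 after the start). Counted by promoter this was 9 of 41 (22.0%), beside 7.15% of all 32851 promoters and 9.86% of the 12108 promoters of genes tested. The share was alike in genes called higher, 7 of 32 promoters (21.9%), and in those not called, 2 of 9 (22.2%). The ETS-type letters CCGGAAGT, searched on both strands, were found in 8 of 41 promoters (19.5%), beside 3.89% of all and 7.47% of those of genes tested, and in 6 of 32 (18.8%) of called and 2 of 9 (22.2%) of uncalled genes. The palindromic NRF1 motif was in 0 of 41, beside 0.971% of all and 1.97% of those of genes tested. CACGTG and the NRF1 palindrome read the same on both strands, and no motif overlapped another. The E-boxes are printed with up to 10 bases on either side, E-box in capitals, 5′ to 3′ on the strand of the gene, to show how the flanks differ between genes.
Imp4, chr1:34439698-34439723, plus strand: ggtcttagacCACGTGacatcccaaa
Ltv1, chr10:13193094-13193119, minus strand: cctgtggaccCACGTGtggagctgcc
Nop2, chr6:125131813-125131838, plus strand: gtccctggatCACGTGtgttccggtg
Pes1, chr11:3963967-3963992, plus strand: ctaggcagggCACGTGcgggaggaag
Rrn3, chr16:13780474-13780499, plus strand: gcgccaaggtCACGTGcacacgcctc
Rrn3, chr16:13780641-13780666, plus strand: acgctctgctCACGTGggccgcgtcc
Tsr1, chr11:74898094-74898119, plus strand: acttggtgcaCACGTGgactgcagaa
Utp18, chr11:93885771-93885796, minus strand: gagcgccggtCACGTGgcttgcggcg
Utp20, chr10:88826765-88826787, minus strand: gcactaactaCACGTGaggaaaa
Wdr43, chr17:71616222-71616247, plus strand: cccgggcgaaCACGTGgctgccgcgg
The E-box lay before the start in Imp4, Nop2, Rrn3 (which has 2) and Utp18, and after it in Ltv1, Pes1, Tsr1, Utp20 and Wdr43. By its first base, that of Pes1 lay 3 bases after the start, that of Wdr43 18 bases after and that of Utp18 20 bases before. Imp4, Wdr43 and Utp20 were called under every alternative tried. Ltv1, Tsr1, Nop2 and Pes1 lost the call under 13, 5, 3 and 1 of the 23 alternatives, Utp18 gained one under 4, and Rrn3 was called under none. A match of letters is a description of the sequence and does not show that a factor binds there.

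Markers of dividing cells were also higher. Of 26 proliferation genes tested 18 were called higher (69.2%) and 0 lower, with a median difference of 0.27. Mcm2, a subunit of the replicative helicase, was 1.82-fold higher (0.86 ± 0.14, limma adjusted p = 0.00055), Bub1 1.36-fold (0.44 ± 0.10, 0.00517) and Plk1 1.19-fold (0.25 ± 0.06, 0.00787). The summed level of the list ran from 5368 to 8054 in controls and from 7291 to 9652 on low P/S. By array its mean centred log2 level was -0.10, 0.08, -0.11, -0.27, -0.07 and -0.46 in control arrays 1 to 6 and 0.15, -0.06, 0.21, 0.29, 0.18 and 0.17 in low P/S arrays 1 to 6, so that control array 6 was again lowest and low P/S array 4 highest. Without both of them 5 of the 26 were called higher, and with the ordinary variance of each gene 9 were. The part of dividing cells in the result for ribosome biogenesis factors was not tested.

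**Figure D5:**
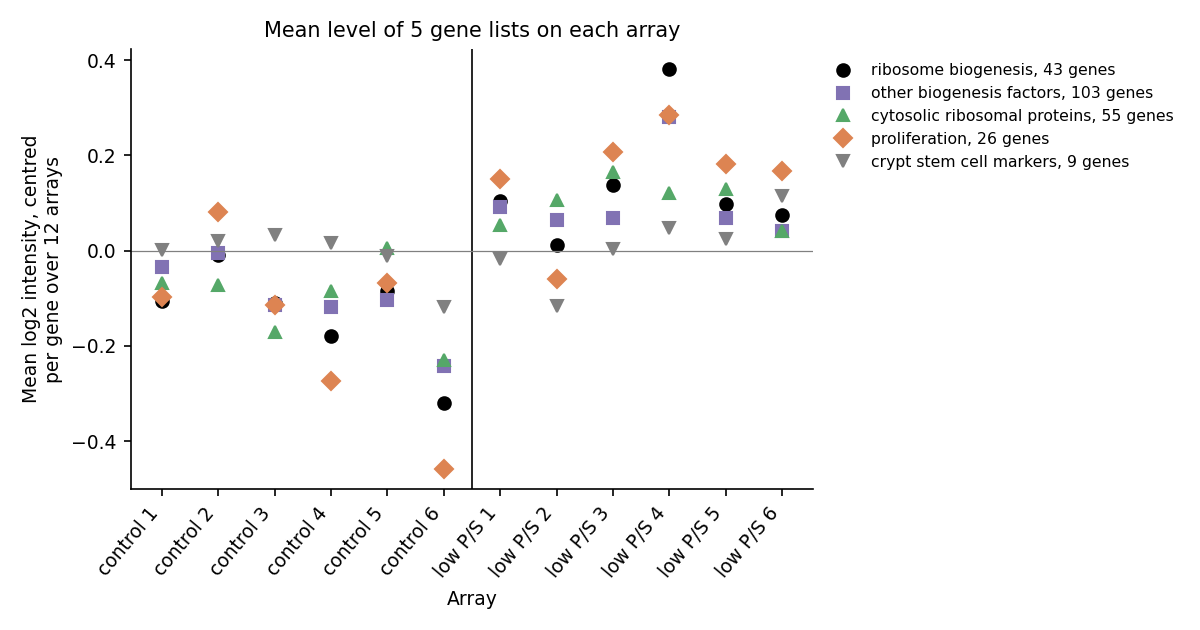
Mean log2 intensity of 5 gene lists on each array, each gene centred on its mean over 12 arrays: the 43 biogenesis factors, other biogenesis factors, cytosolic ribosomal proteins, proliferation genes and crypt stem cell markers. The diets do not overlap for the 43 biogenesis factors, the other biogenesis factors or the cytosolic ribosomal proteins. They overlap for the proliferation genes and the stem cell markers.

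Lists of crypt stem cells, enterocytes, goblet cells and other cell types were read in the same fit. Of 9 crypt stem cell markers tested 1 was called, Cdk6 (0.26 ± 0.08, limma adjusted p = 0.0308), and that call was lost without any one of control arrays 3, 5 and 6 or low P/S arrays 1, 4, 5 and 6 (highest adjusted p 0.0729). Leaving out control array 6 and low P/S array 4, 0 of the 9 were called, and Cdk6 had an adjusted p of 0.123. Lgr5 was not called (-0.14 ± 0.07, limma adjusted p = 0.159), except without low P/S array 6 (-0.19, adjusted p = 0.0472), and Ascl2 and Ephb3 were too dim to test. The summed level of this list was 3723 to 4897 in controls and 3916 to 4877 on low P/S. Of 14 enterocyte markers 6 were called lower and 1 higher, Fabp1 (0.21 ± 0.08, limma adjusted p = 0.0481, named after its value was seen). The call of Fabp1 was lost under 15 of the 23 alternatives, among them leaving out any one of control arrays 1, 3 and 6 or low P/S arrays 1, 2, 3, 5 and 6 (highest adjusted p = 0.106). Among those called lower, Lct, lactase, fell by 0.95 ± 0.13 (log2; adjusted p = 9.2e-05), Anpep fell by 0.63 ± 0.08 (adjusted p = 5.1e-05) and Vil1, villin, fell by 0.30 ± 0.06 (adjusted p = 0.00269). Of 6 goblet cell markers 2 were called higher and 0 lower, Agr2 (1.55-fold, limma adjusted p = 0.00671) and Clca1 (1.28-fold, 0.0329; lost without any one of control array 4 or low P/S arrays 1 to 4, highest 0.0783). Agr2 kept its call under all 23 alternatives. The mean centred log2 level of the goblet list ran from -0.44 to 0.07 in controls and from 0.01 to 0.24 on low P/S, with a summed level of 15113 to 21664 in controls and 20417 to 24510 on low P/S. By limma, 0 of 7 Paneth cell markers and 0 of 8 smooth muscle markers were called, with 1 and 0 of them at an unadjusted p under 0.05. Of 9 immune cell markers Csf1r (0.54) and Itgam (0.26) were called higher and Cd74 (-1.19), Cd3e (-0.26) and Cd8a (-0.30) lower, Cd3e and Cd8a being named after their values were seen, and Adgre1, Cd4, Cd79a and Ms4a1 were too dim to test. Of 11 p53 targets, a group known to respond when ribosome assembly is disturbed, Trp53inp1 was called higher (1.34-fold) and Pmaip1 (1.99-fold) and Sesn1 (1.24-fold) lower, with a median of -0.03; the number called lower was 4 under quantile normalization or without control array 3, and 3 without low P/S array 4. When control array 6 and low P/S array 4 were both left out, the counts higher and lower were 0 and 6 for enterocyte markers, 1 and 0 for goblet, 2 and 4 for immune, 1 and 3 for p53 targets, and 0 and 0 for Paneth and for smooth muscle markers. The part of any shift in cell types in the result for ribosome biogenesis factors was not tested.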

How the data were processed

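The values are the deposited intensity of each probe set, on a linear scale, from the authors' processed table of 12 arrays; per the labels' protocols 500 ng of total RNA was labelled without removal of ribosomal RNA. The summarisation, background correction and normalization behind these intensities are not given in the sources used here. Of 34760 probe sets 21640 carry 1 gene symbol in the platform annotation, 1321 several and 11799 none; the first were used, and the brightest probe set by mean log2 stood for a gene. Genes under the 40th percentile of mean level (intensity 85.6) were left out, 7975 in all. The difference between diets was fitted on log2 with limma 3.58.1 in R 4.3.3 (lmFit, eBayes), diet as the only term, over 11962 genes. The fit was first run on simulated arrays, with independent noise in each gene and differences planted among brighter genes. That run does not cover genes that move together or arrays that stand apart. The number of arrays limits the precision: the median SE was 0.061 log2.

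The design text calls the 6 arrays of a group biological replicates. Replicate numbers were checked for pairing: same-numbered arrays of the diets correlated at 0.19, 0.094, 0.42, -0.11, -0.072 and 0.31 in their deviations, so they were not treated as pairs. The separate probe sets of Fbl and Wdr12 and the log2 ratios of paralogues were tested by exact permutation over arrays (NumPy 2.4.6). The Benjamini-Hochberg adjustment of the ratios used SciPy 1.17.1. The genes and lists were chosen with earlier results of these data known. Values are printed for up to 5 genes of smallest p in each role, up to 3 of each other list (all tested genes of the Myc-Max network), and promoters for the 6 genes of smallest adjusted p with a RefSeq promoter. Polr1f, Polr1g and Polr1h were matched by the older symbols Twistnb, Cd3eap and Znrd1. Alternatives covered scaling, filter, probe set choice, array weights, variance, block, pseudocount and arrays left out.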

Additional observations from a re-analysis of the deposited data

Results flagged for a closer look

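In 16 of 86 groups (43 genes in each diet) the extreme array stood apart from the other 5 by a gap, as a share of the group's range and both taken on the log2 scale, above Dixon's 95% critical value for 6 values; chance gives about 1 in 20. Low P/S array 4 was the high array in 9 of them. Its intensity and that of the nearest array were 175 and 137 for Utp18 (gap 0.646 of the range), 301 and 216 for Mphosph10 (0.682), 160 and 147 for Rrp12 (0.658), 164 and 132 for Bysl (0.742), and 599 and 449 for Tsr1 (0.655). For the large subunit factors they were 285 and 231 for Nop2 (0.748), 299 and 205 for Rrs1 (0.722), 351 and 286 for Ftsj3 (0.631), and 392 and 271 for Gnl3 (0.763). Control array 6 was the low array in 6 groups, at 518 against 699 for Ncl (0.701), 271 against 341 for Rrn3 (0.656), 105 against 119 for Utp18 (0.706), 297 against 392 for Wdr43 (0.633), 193 against 268 for Pes1 (0.727) and 261 against 302 for Ebna1bp2 (0.648). Control array 5 was high for Nop16, at 213 against 187 (0.649). These groups share arrays, so the flags are not independent of each other.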

How the results depend on the processing

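Of the 32 genes called higher, 18 kept the call under all 23 alternatives, 21 kept it when any 1 array was left out, and 0 of the 43 reversed under any of them; 8 of the 11 uncalled genes stayed uncalled throughout. The number called higher was 27 under quantile normalization, 33 under median centring, 29 with no filter, 30 of 37 tested with the filter at the 60th percentile, 33 with the mean of probe sets, 31 with array weights, 22 with the ordinary variance per gene, 32 with a pseudocount of 16 and 31 without control arrays 1 and 2; the number called lower was 0 each time. Over all genes 2308 were called higher under median centring, 1993 of 19937 with no filter and 1984 with the 60th percentile filter. That filter leaves fewer genes to test than the one at the 40th percentile. The 1984 is therefore a larger share of the genes tested than the number tested in the main fit would give. The number called higher over all genes was 2123 with the mean of probe sets, 2263 with array weights and 1604 with the ordinary variance per gene. With a pseudocount of 16 it was 2136, and without control arrays 1 and 2 it was 2718. For the 43 genes, leaving out 1 array gave 23 to 32 called higher and a median difference of 0.22 to 0.28. The fewest were without control array 4, control array 6 or low P/S array 4. Same-numbered arrays share only a number: the fit with the replicate block called 32 of the 43 genes higher, 64 other factors and 41 ribosomal proteins, with 2454 of all genes higher and 1076 lower, and arrays 3 and 6 alone matched best with their own number. Over all genes the split of 2132 higher and 942 lower became 1773 and 1543 under quantile normalization, the share of all genes called higher being 14.8%, and the median difference of all genes moved by -0.027 under it and by 0.026 under median centring. Leaving out 1 array gave 1610 to 2353 higher and 788 to 1051 lower over all genes, 43 to 62 higher and 0 to 1 lower among other biogenesis factors, and 28 to 44 ribosomal proteins higher. The other factors called lower were Ttf1 under quantile normalization (1 gene, -0.14, adjusted p = 0.0298) and Mrto4 without low P/S array 4 (-0.23, adjusted p = 0.0250). Without control array 6 and low P/S array 4 together, an alternative chosen after seeing the data, 1222 genes and 29 other factors were called higher, and 22 of the 43. Among the other genes named, Mlx (-0.026) and Mxi1 (-0.035) changed sign under quantile normalization, neither being called. Causes of these moves were not tested. Signal over background is not known beyond the filter, and genes near it, such as Polr1e and Rrp1b, were measured close to the dim end.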
